A study of Rattus norvegicus with 24 samples.

Results

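The genes described here are the epidermal growth factor (EGF) receptor, 2 related receptors, 5 of their ligands and 2 inhibitors of the receptors, 10 genes of the 30667 in the deposited table. They are the receptors Egfr, Erbb2 and Erbb3, the ligands Areg, Ereg, Hbegf, Tgfa and Btc, and the inhibitors Errfi1 and Lrig1. They were chosen by name around Errfi1, which was selected on measured values: it was higher in G than in A in an earlier fit to these data. All member values of G against A are therefore given as a description with no test. The other letter pairs share samples with that contrast, and the differences of Errfi1 in them are a description too.

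The rats of the series were used to model lung cancer caused by smoky coal, a bituminous coal whose smoke carries polycyclic aromatic hydrocarbons. Messenger RNA of lung tissue was sequenced in 24 samples. Each title joins 1 of 4 letters (A, B, C, G) to a sample number, 1 to 6, and samples were grouped by letter, 6 to a group. All 24 samples, every letter included, carry the protocol label smoky coal, and no strain, age, dose, time, treatment or control is given for any letter. The labels do not say whether samples came from separate animals or what a number stands for, so p-values measure the spread between these samples.

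The ErbB receptors are tyrosine kinases of epithelial and other cells that pair on binding a ligand and signal through RAS and ERK and through PI3 kinase. Their ligands are made as membrane proteins and released by metalloproteinases such as ADAM17. In the lung they act in the growth and repair of airway and alveolar epithelium, and inhibitors that the pathway itself switches on, such as ERRFI1, limit the signal.

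Values are normalized read counts per gene, with a total of 61717516 to 66007148 per sample. The submitters' processing notes name the aligner STAR and the mouse build GRCm38 for these rat samples, so levels were compared between samples of a gene and not between genes. In bulk tissue, fewer cells of a type and less RNA per cell cannot be told apart. Alveolar type 2 markers (surfactant genes among them) summed to at least 1082411 in every sample, but sample A4 stood apart: the summed level of 5 squamous epithelium markers was 15620 in A4 and 226 to 498 elsewhere, with Lor and Sprr3 at 0 in at least 1 sample. The sum of 4 skeletal muscle markers was 58669 in A4, 14169 in B4 and at most 2661 elsewhere, and that of 3 heart muscle markers was 29455 in A4 and 13129 in G5, against at most 4779 in the rest. The sum of 3 neutrophil markers was highest in A2 (25729) and C2 (16780), against at most 12676 in the rest. Results were therefore also computed without A4 and the samples numbered 2, a choice made after seeing the data.

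Errfi1 and Areg have a cyclic AMP response element (CRE) or its core just upstream of their RefSeq start site, and these windows are shown because Errfi1 is the member with the largest letter differences and Areg the one that varied most between samples. Each is the 120 bases before the start site of the rat gene (RefSeq, build GRCr8). Capitals mark the CRE TGACGTCA or its 5-base core, TGACG on either strand, and the TATA box sequence TATAAA, whatever its distance from the start site.
Errfi1, chr5:166606721-166606840, plus strand: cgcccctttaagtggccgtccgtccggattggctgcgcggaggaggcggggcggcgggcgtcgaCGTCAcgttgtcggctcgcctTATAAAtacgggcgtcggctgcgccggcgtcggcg
Areg, chr14:17265642-17265761, minus strand: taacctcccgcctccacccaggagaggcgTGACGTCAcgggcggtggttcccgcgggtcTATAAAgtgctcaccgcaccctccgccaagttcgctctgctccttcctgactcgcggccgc

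The full CRE, searched on both strands of the 250 bases before each start site, was found in 1.59% of 33469 promoters and, among the 8 members listed there, only in that of Areg. It begins at position -91 from the start site. The core TGACG, which the full CRE contains on both strands, was found in 18.2% of promoters and in those of Errfi1 (at -56), Areg and Hbegf. TATAAA, also searched on both strands, was found in 12.9% of promoters and in those of Errfi1 (at -35) and Areg (at -61). The consensus glucocorticoid response element, the AP-1 site TGACTCA, the E-box CACGTG and the CArG box were found in none of the 8. Ereg and Erbb3 were not among the promoters. A match describes the letters of the window only.

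Errfi1 encodes an adaptor, also called MIG6, that binds the kinase domain of the activated receptor, blocks it and directs it to degradation. It was lowest in A, highest in G and in between in B and C. In A the 6 samples ran from 4183 to 8315 normalized counts with a median of 6646. In B they ran from 7456 to 17003 with a median of 10866, and in C from 6530 to 13251 with a median of 10492. In G the lowest sample had 12310, the median was 16289 and the highest sample 17971. Every G sample lay above every A sample, while G overlapped with B and with C, and B and C overlapped with A and with each other.

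The means were 6407 ± 1784 for A and 11297 ± 3428 for B, then 10220 ± 2638 for C and 15656 ± 2181 for G (SD, n = 6). The difference of G from A on the log2(value + 1) scale was 1.33 (SE 0.20), a ratio of means of 2.44. Without A4 and the 4 samples numbered 2 it was 1.13. In the model of letters alone, 0.00652% of the 30667 genes had a limma adjusted p under 0.05 in that contrast. With the sample number as a block many more genes were called, as given in the last section. In 0.196% of the 30667 genes the lowest G sample lay above the highest A sample.

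Within the same number, G exceeded A by a ratio of 1.90 to 4.06, the lowest in number 3 and the highest in number 4. A was the lowest of the 4 letters in 5 of 6 numbers, the exception being number 6, where C6 had 6530 and A6 6642. G was the highest in 5 of 6 numbers, the exception being number 3, where B3 had 17003 and G3 15601. Samples numbered 6 split widest between G and the rest: G6 was the highest of all 24 samples, at 17971, while B6 and C6 were the lowest of their letters, at 7456 and 6530.

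B lay above A by 0.82 (SE 0.20) and C above A by 0.68 (SE 0.20) on the log2 scale, and G lay above B by 0.51 and above C by 0.65. These pairs share samples with each other and with G against A.

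**Figure D1:**
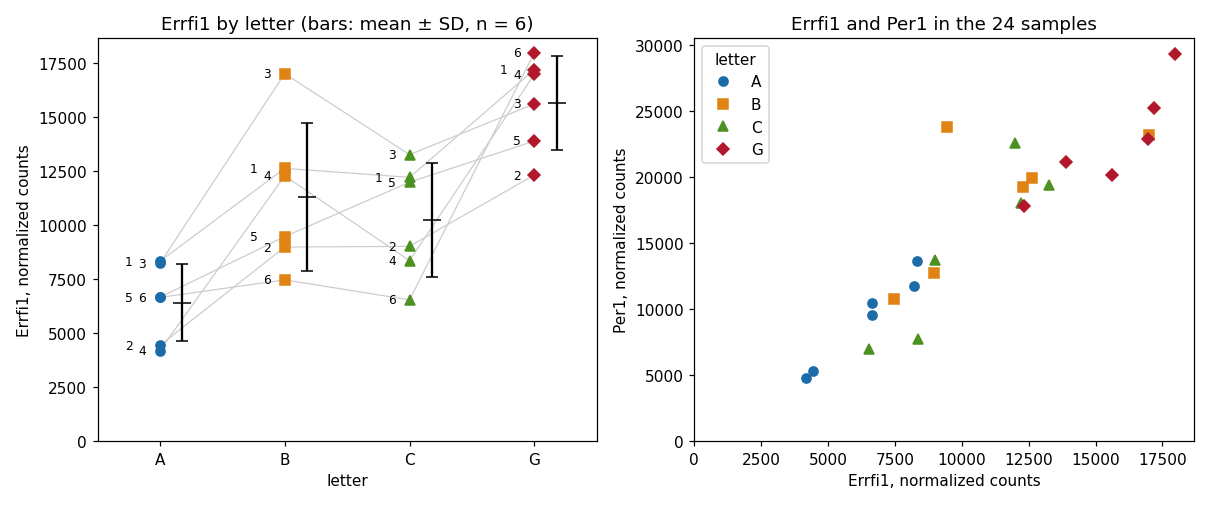
Left: normalized counts of Errfi1 in each sample by letter, with sample numbers beside the points, grey lines joining equal numbers, and black bars for the mean ± SD (n = 6). Right: Errfi1 against Per1 in the same 24 samples. The 6 G samples, at 12310 to 17971, all lie above the 6 A samples, at 4183 to 8315, and samples high in Errfi1 are high in Per1.

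The genes whose levels followed Errfi1 most closely over the 24 samples, by Pearson's r of log2 values among 15913 genes with a mean of at least 100, were Per1 (r = 0.93), Rab3a (0.92), Nfkbia (0.89), Tcim (0.88) and Cttnbp2nl (0.88). Per1 is a repressor of the circadian clock, Rab3a a GTPase of vesicle release and Nfkbia the inhibitor of NF-kappa-B. After subtraction of the letter means, r with Errfi1 was 0.88 for Per1, 0.82 for Rab3a and 0.75 for Nfkbia. The points share letters and numbers, so these values are a description.

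Per1 shows the same order of letters as Errfi1. Its means were 9224 ± 3548 for A and 18263 ± 5387 for B, then 14728 ± 6408 for C and 22748 ± 4075 for G (SD, n = 6). The lowest sample in both genes was A4, at 4751 for Per1, and the highest in both was G6, at 29302 for Per1. Nfkbia averaged 15489 ± 2910 for A and 26700 ± 8413 for B, then 21899 ± 6002 for C and 33230 ± 6988 for G. Rab3a had 1722 ± 442 in A and 2843 ± 193 in G.

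Per1 and Nfkbia also belong to a list of 10 glucocorticoid responsive genes. That list was drawn up with earlier results of these data known and is not independent evidence of a direction. Of its 10 genes, 9 (all but Pdk4) were higher in G than in A, where 14976 of all 30667 genes were. The median log2 difference of the 10 was 0.76, against a median of -0.01 over all genes. The medians of B against A and C against A were 0.34 and 0.26. None of the 10 passed the threshold in any letter pair. The list shares Dusp1 with the immediate early genes. Cdkn1a, a cell cycle inhibitor, had 2756 ± 412 normalized counts in A and 5214 ± 798 in G (SD, n = 6). Its lowest G sample (3977) lay above its highest A sample (3394), which held for 0.196% of all genes. Tsc22d3, which encodes the glucocorticoid-induced leucine zipper, had 15987 ± 5354 in A and 28695 ± 4706 in G, with overlap. Fkbp5, also on the list, differed little, with 2344 ± 1593 in A and 2381 ± 866 in G.

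Other cell types were measured beside Errfi1. The summed level of the 5 red blood cell markers ran from 155982 to 1073874 in A and from 125654 to 311888 in G. That of the 5 alveolar type 2 markers ran from 1082411 to 1609116 in A and from 1097130 to 1612976 in G. The 3 endothelium markers ran from 78381 to 144145 in A and from 110938 to 178166 in G. No marker of these lists was at 0 in any sample. Their part in the level of Errfi1 was not tested.

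Lrig1 encodes a transmembrane protein that binds ErbB receptors and promotes their degradation, and it is a marker of stem cells in several epithelia. It ran from 4647 to 7379 normalized counts in A (median 6483), from 6350 to 8734 in B (6866), from 5643 to 8609 in C (6468) and from 6481 to 8101 in G (7456). All 4 letters overlapped. G exceeded A in 6 of 6 numbers, with ratios from 1.03 to 1.61 and a log2 difference of 0.23 (SE 0.10). B was also above A in 6 of 6 numbers, though A5 and B5 both round to 6380. G exceeded B in 3 of 6 numbers. A2 was the lowest of the 24 samples, at 4647.

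The receptors differed little between the letters. EGFR binds all 5 ligands, ERBB2 has no known soluble ligand and acts as the partner of the others, and ERBB3 binds neuregulins and has little kinase activity of its own. Egfr averaged 1429 ± 109 for A and 1521 ± 174 for B, then 1545 ± 144 for C and 1602 ± 243 for G (SD, n = 6). Erbb2 averaged 3821 ± 257 for A and 3984 ± 451 for B, then 3808 ± 234 for C and 4108 ± 421 for G. Erbb3 averaged 6066 ± 675, 6506 ± 1045, 6484 ± 1124 and 6970 ± 1340 in the same order. For each receptor the 4 letters overlapped, and the ratio of the G mean to the A mean was 1.08 to 1.15. Over all 24 samples the highest value was 1.55 times the lowest for Egfr, 1.38 for Erbb2 and 1.73 for Erbb3.

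The ligands Areg and Ereg, for amphiregulin and epiregulin, varied far more between samples than between letters. Amphiregulin is made by epithelial and immune cells in repair and type 2 inflammation, and epiregulin is a ligand of EGFR and ERBB4 that is induced in inflammation. The medians of Areg were 155 for A and 162 for B, then 156 for C and 151 for G. Its lowest sample was G5, at 39.5, and its highest A2, at 859, a ratio of 21.8. Ereg had medians of 202, 279, 217 and 221 normalized counts in the same order. Its lowest sample was A4, at 55.2, and its highest were G6, at 712, and A2, at 662.

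Areg and Ereg are neighbours on the rat chromosome, with no gene listed between them in RefSeq, and Btc lies next to Areg on the other side. Over the 24 samples r of log2 values between Areg and Ereg was 0.85, the highest of the 45 member pairs, and 0.88 after subtraction of the letter means. For Areg and Btc it was 0.32. A2, the sample highest in Areg, was also the highest in the neutrophil markers. G6, the sample highest in Ereg, had 256 normalized counts of Areg and a neutrophil sum of 7952. The part of these cells in the ligands was not tested.

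**Figure D2:**
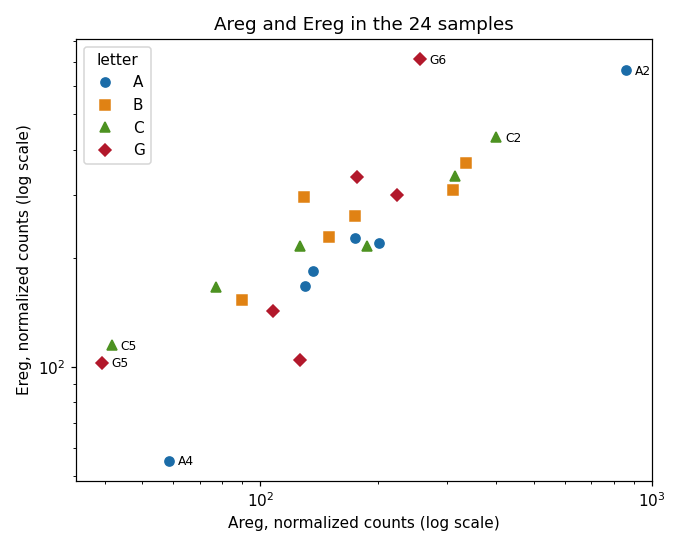
Normalized counts of Areg (x) and Ereg (y) in each of the 24 samples, both on log axes, with letters as colours and 6 samples labelled. The points rise together from A4, C5 and G5 at the low end to A2 at the high end, and the letters are mixed along the whole range.

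Hbegf encodes heparin-binding EGF, a ligand of EGFR and ERBB4 whose messenger is made within minutes of many stimuli. It ran from 1051 to 1948 in A (median 1473), from 1010 to 1775 in B (1334), from 1008 to 1798 in C (1439) and from 1077 to 2286 in G (1472). Tgfa, for transforming growth factor alpha, ran from 694 to 842 in A (769), from 719 to 924 in B (787), from 633 to 1034 in C (733) and from 594 to 900 in G (706). Btc, for betacellulin, ran from 12.5 to 56.9 normalized counts over the 24 samples, with medians of 22.6, 27.6, 25.5 and 23.8 in A, B, C and G. All letters overlapped for each of the 3 ligands.

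In the pairs other than G against A, the limma test called 0 of the 10 members, with Benjamini-Hochberg adjustment over all genes. It called 0% of all genes in B against A, 0% in C against A, 0% in C against B, 0.00326% in G against B and 0.00652% in G against C. At an unadjusted limma p under 0.05 in the model of letters alone, 0 of the 9 members other than Errfi1 passed in each of these 5 pairs. In that model 558 (C against B) to 1235 (G against C) of the 30667 genes did. The count was not repeated with the sample number as a block, which narrowed some differences. For Lrig1 in B against A, a difference of 0.19, the SE was 0.10 without the block and 0.06 with it (blocked limma adjusted p = 0.532). For Areg the SE of a log2 difference between letters was 0.57, for Ereg 0.47, and for Erbb2 0.07. A missing call thus limits differences of the receptors far more closely than those of Areg and Ereg.

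**Figure D3:**
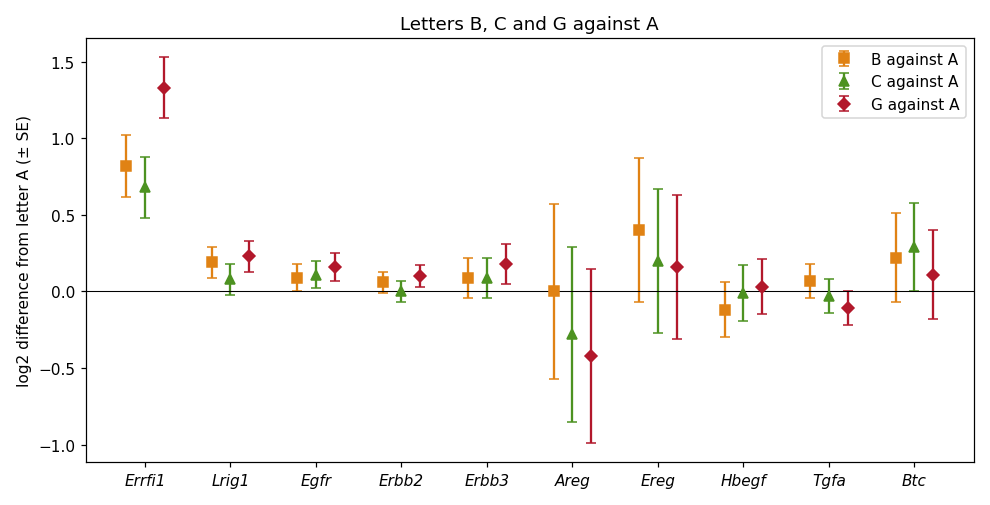
Log2 differences of B, C and G from A for the 10 genes, with bars of 1 SE from the limma fit to 24 samples. Errfi1 lies at 0.68 to 1.33, the receptors within 0.18 of 0, and the bars of Areg and Ereg are the longest.

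The samples were then compared by number, a contrast that is balanced over the letters and was not the one by which Errfi1 was selected. The F test of the 6 numbers, with letter in the model, called 7 of the 10 members at a limma adjusted p under 0.05. It called 31.5% of all 30667 genes, and 42.6% of the 21922 genes with a mean of at least 10. Equal numbers therefore shared levels of a large part of the genes, and the 10 members were called at a share above that of all genes, which was not itself tested. The 7 were Erbb3 (adjusted p = 7.29e-04), Lrig1 (0.00197), Hbegf (0.0129), Egfr (0.0166), Errfi1 (0.0338), Areg (0.0338) and Btc (0.045). Erbb2 (0.103), Tgfa (0.326) and Ereg (0.353) were not called.

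The call held without any 1 of the 24 samples for Erbb3, Lrig1 and Hbegf. For Egfr it was lost without B3 or G3, with an adjusted p of up to 0.079. For Errfi1 it was lost in 9 of 24 such fits (without A1, A2, A3, B1, B2, B3, C1, C3 or G2), for Areg in 8 (without B1, B5, C1, C2, C4, C5, G1 or G5) and for Btc in 19. Without A4 and the samples numbered 2, 5 members were called, and Errfi1 (adjusted p = 0.0846) and Btc (0.0672) were not. With robust empirical Bayes in limma 5 members were called as well, and Errfi1 (adjusted p = 0.0769) and Areg (0.0846) were not.

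Erbb3 was set apart by samples numbered 1. A1 had 5040 normalized counts, B1 5128, C1 4870 and G1 4932, and each was the lowest of its letter. The highest number mean was that of number 3, at 7575 ± 756 (SD, n = 4), against 4992 ± 114 for number 1. No sample of another number was as low as any of the 4.

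Lrig1 was set apart by samples numbered 3. A3 had 7379, B3 8734, C3 8609 and G3 8101, each the highest of its letter. Their mean was 8206 ± 615, against 6027 ± 1187 for number 2, whose samples were the lowest of their letter in 3 of 4 cases. Egfr was also highest in number 3, at 1590 in A3, 1778 in B3, 1690 in C3 and 2048 in G3. Its number 3 mean was 1776 ± 197, and the means of numbers 1, 2, 5 and 6 lay between 1427 and 1451. Number 3 was the highest of its letter in 3 of 4 letters for Egfr and for Erbb3.

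Hbegf ran the other way. Its mean was lowest in number 3, at 1062 ± 81.3 (SD, n = 4), with 1051 in A3, 1010 in B3, 1008 in C3 and 1181 in G3. Number 3 was the lowest of its letter in 3 of 4 letters. Its mean was highest in number 6, at 1837 ± 333, with 1805 in A6, 1775 in B6, 1482 in C6 and 2286 in G6. Number 6 was the highest of its letter in 2 of 4 letters. Over the 24 samples r of Hbegf was -0.46 with Erbb3, -0.45 with Lrig1 and -0.32 with Egfr, as a description of samples that share numbers.

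Errfi1 varied with number beside its letter pattern, from a mean of 8680 ± 3238 in number 2 to 13519 ± 3856 in number 3. Areg was lowest on average in number 5 (and in 3 of 4 letters), at 175 in A5, 89.8 in B5, 41.7 in C5 and 39.5 in G5. It was highest on average in number 2, at 390 ± 335, a mean that A2 raises. Btc was lowest on average in number 6 (and in 2 of 4 letters), at 19.6 in A6, 13 in B6, 14.4 in C6 and 17.5 in G6. It was highest on average in number 3, at 35.1 ± 15.2, with C3 at 56.9.

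**Figure D4:**
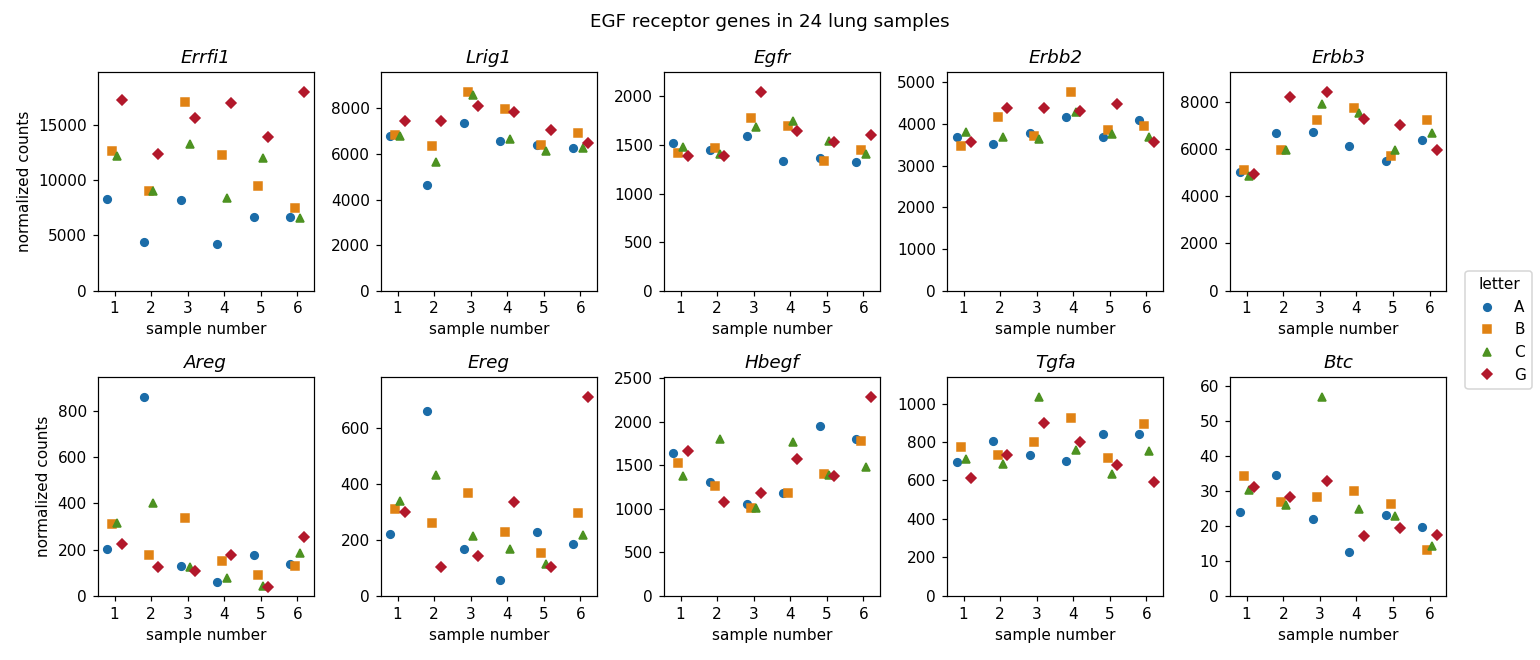
Normalized counts of each of the 10 genes (y, from 0) by sample number (x), with 1 point per sample and letters as colours and shapes. Number 1 is low for Erbb3, number 3 is high for Lrig1 and low for Hbegf, and only Errfi1 shows A (4183 to 8315) fully below G (12310 to 17971).

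As a share of the variance of log2 values, letters accounted for 65.5% in Errfi1, which was selected for its difference between G and A. In the other 9 genes letters accounted for 3.06% to 21.8%. The median over all 30667 genes was 9.45%. Numbers accounted for 17.8% in Errfi1 and for 27.3% (Ereg) to 69% (Erbb3) in the others, against a median of 37.1% over all genes.

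**Figure D5:**
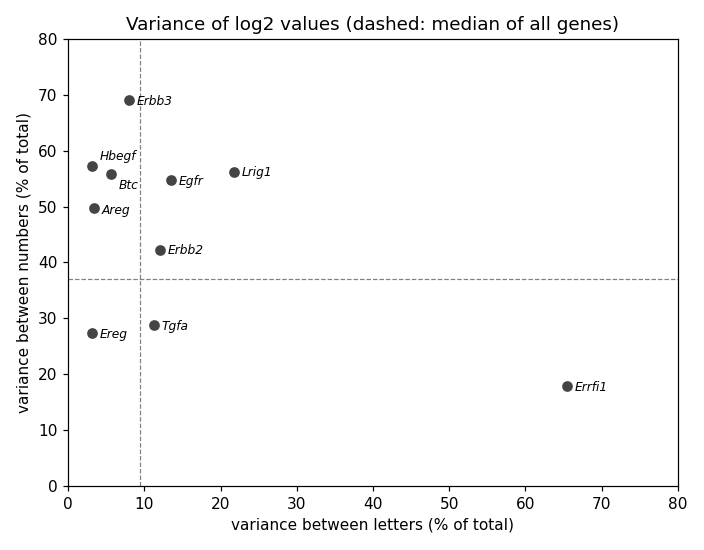
Share of the variance of log2 values between letters (x) and between numbers (y) for each of the 10 genes, in percent of the total, with dashed lines at the medians of all genes, 9.45% and 37.1%. Errfi1 lies alone at the right, at 65.5% and 17.8%.

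Markers of several cell types varied with number as well, in a test that called 31.5% of all genes and 42.6% of those with a mean of at least 10. For these markers and the lists below, the difference from those shares was not tested. The F test called 3 of 3 mesenchyme markers, 3 of 3 endothelium, 3 of 3 ciliated and 3 of 3 club cell markers. It called 4 of 5 alveolar type 2, 3 of 5 alveolar type 1, 4 of 5 red blood cell and 3 of 4 basal cell markers. Called too were 2 of 3 macrophage, 2 of 3 mast cell and 1 of 4 skeletal muscle markers. For neutrophils it was 0 of 3, for squamous epithelium 0 of 5 and for heart muscle 0 of 3. The summed mesenchyme level ran from 91503 to 120737 in samples numbered 1 and from 73286 to 107485 in number 2. It ran from 50337 to 59973 in number 3 and from 43345 to 49396 in number 6. That sum mostly follows Col1a1, highest in number 1 (87335 ± 14318, SD, n = 4) and lowest in number 6 (22853 ± 4431). The other mesenchyme markers had another order. Pdgfra was lowest in number 2 (9567 ± 823) and highest in number 3 (16719 ± 1975), and Dcn was highest in number 4 (11393 ± 6309). The summed macrophage level ran from 28623 to 37894 in number 3 and from 11855 to 23672 in all others. Most of that sum is Mrc1, which was highest in number 3 (29065 ± 4645, SD, n = 4). Cd68 was instead highest in number 2 (5917 ± 1031) and lowest in number 1 (2187 ± 218). Marco, a macrophage marker, averaged 3.20 normalized counts and was at 0 in at least 1 sample. The summed alveolar type 2 level ran from 1322382 to 1609116 in number 3 and from 1221880 to 1616079 in number 2. In number 6 it ran from 1090192 to 1169968. Their part in the levels of Erbb3, Lrig1, Egfr and Hbegf was not tested.

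Of the other ErbB ligands and receptors, 2 of the 6 in the table were called across the numbers. That is near the 31.5% of all genes called. Erbb4, the remaining receptor of the family, had an adjusted p of 6.62e-04 and number means from 258 ± 58.5 (number 2) to 471 ± 49.6 (number 5, SD, n = 4). Egf itself had an adjusted p of 0.0103 and means from 196 ± 29.5 to 290 ± 33.5, lowest and highest in the same numbers. Nrg1, Nrg2, Nrg3 and Nrg4, which encode neuregulins, were not called, and Epgn was not among the rows.

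Genes of ligand release were called in 6 of 8 cases, against 42.6% of genes with a mean of at least 10. Adam12, a metalloproteinase, had number means from 333 ± 36.2 (number 4) to 827 ± 60.8 (number 1), with an adjusted p of 3.38e-07. Adam17, the main sheddase of Areg, Ereg, Hbegf and Tgfa, ran from 10565 ± 712 (number 4) to 15415 ± 2814 (number 2). Rhbdf2, which carries ADAM17 to the cell surface, ran from 2879 ± 110 (number 5) to 4540 ± 864 (number 2). Timp3, an inhibitor of ADAM17, ran from 30265 ± 8454 (number 2) to 50314 ± 10295 (number 3).

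Of 16 genes of receptor turnover and inhibition, 11 were called across the numbers, with Socs5, Cblb, Ptpn2 and Lrig2 first. Cblb, a ubiquitin ligase, ran from 3432 ± 347 (number 5) to 4763 ± 774 (number 3). Lrig2, a relative of Lrig1, ran from 1659 ± 87.8 (number 2) to 2007 ± 81.8 (number 6). Of 16 adaptor and kinase genes 9 were called, with Shc1, Plcg1, Gab1 and Akt1 first and ratios of the highest to the lowest number mean of 1.19 to 1.37. Of all genes with a mean of at least 10, 42.6% were called. The median share of variance between numbers was 55.8% in the first of these lists and 53.2% in the second, against 37.1% over all genes.

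Of 17 ERK targets and feedback genes, 12 were called across the numbers, against 42.6% of genes with a mean of at least 10. Ccnd1, for cyclin D1, ran from 11524 ± 1781 (number 3) to 18594 ± 1743 (number 4), and Plaur, for the urokinase receptor, from 823 ± 50.0 (number 6) to 1794 ± 638 (number 3). Etv4 ran from 1152 ± 211 (number 4) to 2114 ± 96.9 (number 1) and Spry1 from 4858 ± 947 (number 2) to 6514 ± 723 (number 4). Dusp6, the ERK phosphatase often read as a gauge of ERK activity, was not called (adjusted p = 0.548), and its letter means lay between 15369 and 16436 normalized counts.

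None of the 17 passed the threshold in a letter pair. In G against A, the pair with the largest difference of Errfi1, 6 of the 17 were higher, where 14976 of all 30667 genes were. The median log2 difference of the 17 was -0.17, against -0.01 over all genes. Spry4 and Spry2, inhibitors of the pathway upstream of ERK, are named here after their values were seen. Spry4 had 4795 ± 1018 in A and 2927 ± 1294 in G (SD, n = 6), and Spry2 had 3713 ± 365 in A and 3071 ± 355 in G. The ranges of A and G overlapped for both. Spred2, among the 6 that were higher in G, had 1881 ± 252 in A and 2116 ± 350 in G, also with overlap.

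Of 17 immediate early genes, 10 were called across the numbers, against 42.6% of genes with a mean of at least 10. The 4 with the smallest p were highest in number 6. Nr4a1 ran from 2446 ± 540 (number 3) to 14317 ± 5373 (number 6), Junb from 8269 ± 830 (number 1) to 18282 ± 2985, Klf4 from 13608 ± 1345 (number 3) to 20194 ± 1467 and Nr4a2 from 882 ± 61.1 (number 3) to 1834 ± 539. Fos ran from 1445 ± 140 in number 1 to 5270 ± 579 in number 6, and Egr1 from 2590 ± 504 in number 3 to 10349 ± 2385 in number 6. Hbegf had its lowest and highest number means in the same numbers as Nr4a1, 3 and 6. Errfi1 did not share that order: in number 6, where Fos lay between 4647 and 6026 in all 4 letters, Errfi1 was 6530 to 7456 in A, B and C and 17971 in G.

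Of the 10 glucocorticoid responsive genes, 7 were called across the numbers, against 42.6% of genes with a mean of at least 10. Klf9 ran from 12961 ± 4577 (number 2) to 27274 ± 4348 (number 3), Fkbp5 from 1399 ± 239 (number 6) to 7199 ± 4587 (number 3), Tsc22d3 from 16308 ± 10723 (number 2) to 31835 ± 5355 (number 3) and Cdkn1a from 2986 ± 726 (number 6) to 5360 ± 1468 (number 3). Each had its highest mean in number 3, as did the members Errfi1, Lrig1, Egfr, Erbb3, Tgfa and Btc. The share of all genes with their highest mean in number 3 was not counted. Tgfa was not called across the numbers (F test adjusted p = 0.326). C3 raised the number 3 means of Fkbp5 (13556 in C3) and Btc (56.9 in C3). Of the rest of the glucocorticoid list, Zbtb16 was also highest in number 3. Dusp1 and Pdk4 were highest in number 6, Sgk1 in number 1, Nfkbia in number 4 and Per1 in number 5. Per1 was not called (adjusted p = 0.0614).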

How the data were processed

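Messenger RNA of rat lung was measured in 24 samples. The authors deposited a table of signal values per gene that have the form of normalized read counts. The submitters' processing notes name STAR and the mouse build GRCm38. The counting tool, the normalization and the annotation are not given in the sources used here and the depth is unknown. No constant step per sample gave back whole reads, so no count test was run. Rat reads unlike the mouse sequence may be lost in alignment.

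Values were compared as log2(value + 1) with limma 3.58.1 in R 4.3.3 (trended empirical Bayes, genes with a mean of at least 0.5, two-sided, Benjamini-Hochberg over 30667 genes, threshold 0.05). Letter pairs came from a model of 4 letter means over all 24 samples. The F test of the numbers used letter and number. The scripts were tested on simulated data. RefSeq (GRCr8) gave promoters for 8 of the 10 members and the order of neighbours.

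The members and lists were chosen with earlier results of these data known. Named are the 10 members, the 5 genes most like Errfi1, up to 4 genes per list with the smallest F test p, and Fos, Egr1 and Dusp6. Outside this rule, Spry2, Spry4, Spred2 and the single mesenchyme and macrophage markers were named after their values were seen. Markers listed at 0, a gene shared by 2 lists and the rest of the short ErbB and glucocorticoid lists are named without fold changes. Correlations of deviations from the letter means, over 21922 genes, were at least 0.17 and 0.13 for all 6 equal numbers in B against A and C against B, and at or under 0.1 for at least 1 number in every other pair. By the limit of 0.1 only those pairs of letters were taken as paired, from the data alone. In them the blocked fit also called no member.

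Alternatives were a pseudocount of 0.1, a mean of at least 10, quantile and 75th percentile scaling, the block, pairs alone, sample weights, robust empirical Bayes and leaving out samples.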

Additional observations from a re-analysis of the deposited data

Results flagged for a closer look

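In each of the 40 sets of 6 samples (10 genes in 4 letters), the gap of the highest or lowest sample to the next, as a share of the range, was compared with Dixon's 95% critical value for 6 samples. It was exceeded in 5 sets, where chance, which picks out about 1 set in 20, gives about 2. In A2, Areg had 859 normalized counts, where the other A samples had 58.3 to 201, and Ereg had 662, where they had 55.2 to 228. In C3, Tgfa had 1034, where the other C samples had 633 to 761, and Btc had 56.9, where they had 14.4 to 30.2. In C4, Erbb2 had 4271, where the other C samples had 3640 to 3803. On the log2 scale 2 of the 5, Erbb2 in C4 and Tgfa in C3, would have been picked out.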

How the results depend on the processing

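The log2 difference of Errfi1 between G and A was 1.33, and it stayed between 1.13 and 1.41 in all fits, leaving out samples included. The number of genes called across the 6 numbers stayed within 1.5 times in every fit. The number of members called across the numbers, 7, ran from 4 to 7 when 1 sample was left out and was 4 without B1 or without C1. Robust empirical Bayes called 5 members, with Errfi1 at an adjusted p of 0.0769 and Areg at 0.0846. With the sample number as a replicate block, 391 genes were called in G against A, 11 in G against C and 2 in G against B, against 2, 2 and 1 without it. Fits to the 12 samples of a pair called 5 genes in G against A and 1 in G against C, and sample weights called 3 in G against B. Leaving out 1 sample gave 1 to 4 genes in G against A, 1 to 2 in G against B and 1 to 2 in G against C. Without A4 and the samples numbered 2, a setting added after seeing the data, 1 gene was called in each of G against A and G against C. The cause of these changes was not tested. No member was called in any of the other 5 pairs in any fit. The reads per sample are unknown, so counting error is not separated from the spread between samples, which limits Btc most, at 12.5 to 56.9 normalized counts.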
